A study of Mus musculus with 18 samples.

Results

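An inflammatory and a low-oxygen state of interferon-activated macrophages were set against each other. The comparison took its samples from the treatment labels alone: 3 libraries given interferon-gamma (IFNg) with tumour necrosis factor (TNF), one of them titled with TNFa, and 3 libraries given IFNg with hypoxia, 6 of the 18 libraries in the series. The cells were mouse bone-marrow-derived macrophages (BMDMs), macrophages grown in culture from bone marrow, labelled WT, and RNA was taken at 18 h. IFNg was present in both groups, so TNF and hypoxia were each measured only on top of IFNg, and 3 libraries given IFNg alone served as the common reference. Cytokine doses, the oxygen level and the growth factor used to make the cells are not given in the labels. Whether same-group libraries stem from different mice or cultures is not stated in the labels, so a p-value here reflects only how these samples scatter, which may be technical variation.

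TNF binds its receptors and frees the transcription factor NF-kappaB from its IkappaB inhibitors, which turns on cytokines, chemokines and survival genes. Low oxygen stops the prolyl hydroxylases that mark hypoxia-inducible factor (HIF) for destruction, and HIF then raises glucose uptake, glycolysis, vessel growth factors and its own hydroxylases. Both routes are known to meet in macrophages, since NF-kappaB transcribes Hif1a and inflammatory macrophages also turn to glycolysis. IFNg itself prepares macrophages for microbial killing and antigen presentation. Another regulator, Nrf2, is held by Keap1 until oxidants or electrophiles release it, and it then raises glutathione, thioredoxin and heme-degrading enzymes.

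Promoter windows of 250 bases before the start of 4 genes are shown because each gene stands for one of these programmes and is described with its values in the paragraphs on glycolysis, oxygen sensing, oxidative defence and NF-kappaB. The sequences are from RefSeq on build GRCm38.p6 and run 5′ to 3′ on the gene's strand. Capitals mark matches on either strand to ACGTG or GCGTG, the core of the hypoxia response element, in Slc2a1 (chr4:119108495-119108744, plus strand, 2 matches) and Egln3 (chr12:54203875-54204124, minus strand, 1 match). They mark TGACNNNGC, the antioxidant response element core, in Gclm (chr3:122245307-122245556, plus strand, 1 match), and a kappaB form, GGG and CC with any 5 bases between them, in Nfkbia (chr12:55492648-55492897, minus strand, 2 matches). Matches to the other motifs are not marked: 4 hypoxia cores and 2 kappaB forms in Gclm, 3 kappaB forms in Egln3, 1 in Slc2a1 and 1 antioxidant core in Nfkbia.
Slc2a1: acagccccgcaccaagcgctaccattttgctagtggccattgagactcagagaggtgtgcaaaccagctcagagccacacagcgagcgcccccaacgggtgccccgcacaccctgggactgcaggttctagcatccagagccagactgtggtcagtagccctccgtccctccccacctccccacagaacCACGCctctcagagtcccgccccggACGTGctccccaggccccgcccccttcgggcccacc
Egln3: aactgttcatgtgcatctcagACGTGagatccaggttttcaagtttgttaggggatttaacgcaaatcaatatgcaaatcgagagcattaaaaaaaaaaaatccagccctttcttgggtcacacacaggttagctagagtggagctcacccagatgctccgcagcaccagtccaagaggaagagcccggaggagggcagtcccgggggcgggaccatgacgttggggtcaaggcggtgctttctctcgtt
Gclm: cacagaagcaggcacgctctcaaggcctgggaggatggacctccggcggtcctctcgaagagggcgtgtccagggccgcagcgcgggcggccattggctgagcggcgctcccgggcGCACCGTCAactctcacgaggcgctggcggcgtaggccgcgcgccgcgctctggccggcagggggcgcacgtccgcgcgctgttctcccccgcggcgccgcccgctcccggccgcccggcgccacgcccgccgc
Nfkbia: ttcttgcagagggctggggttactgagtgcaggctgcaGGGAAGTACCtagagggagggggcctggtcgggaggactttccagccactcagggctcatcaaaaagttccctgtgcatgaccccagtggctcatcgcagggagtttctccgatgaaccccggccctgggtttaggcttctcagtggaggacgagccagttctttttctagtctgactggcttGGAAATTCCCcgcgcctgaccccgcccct

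These motifs are short and common. The hypoxia core was found in 28 of 31 promoters of the hypoxia response list (90.3%) and 22 of 25 of the glycolysis list (88.0%), against 61.3% of the 9181 tested genes with a promoter in the table. The antioxidant core was found in 9 of 31 promoters of the Nrf2 list (29.0%) against 13.9% of tested genes. The kappaB form was found in 21 of 29 promoters of the NF-kappaB list (72.4%) against 66.4%. The motifs were not particular to their lists: the kappaB form was found in 77.4% of promoters of the hypoxia list, 77.4% of the Nrf2 list and 76.0% of the glycolysis list, and the hypoxia core in 77.4% of the Nrf2 list. ACGTG can overlap its own reverse complement, each promoter was counted once whatever its number of matches, and a match is a description of letters, not of binding.

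The TNF libraries held 15495405 to 20952799 counts, the hypoxia libraries 12855923 to 16608853 and the IFNg libraries 14174365 to 17568777. Levels are CPM, a gene's count relative to its library's size after adjustment by the trimmed mean of M-values (TMM), given for libraries 1, 2 and 3 of a group, and 3 counts in a library of these groups stood at 0.167 to 0.255 CPM. The cells carried macrophage markers in both groups: Csf1r, the receptor for macrophage colony-stimulating factor, lay at 7741, 7872 and 7654 CPM with TNF and 7332, 7167 and 6829 CPM with hypoxia. A list of 12 macrophage markers summed to 20500 to 22300 CPM with TNF, 18800 to 19400 CPM with hypoxia and 15700 to 17500 CPM with IFNg. Members of this list did not all stay level: 3 were higher and 5 lower with TNF than with hypoxia. Cd14 alone gave 5040 to 5880 CPM of the sum with TNF, 174 to 264 CPM with hypoxia and 142 to 151 CPM with IFNg. Fcgr1 went the other way, at 600 to 747 CPM with TNF, 2170 to 2340 CPM with hypoxia and 1420 to 1630 CPM with IFNg. The order of the sums thus does not hold for each member. Several defining markers of other cells had no counts. Ms4a1, Pax5 and Cd79a of B cells, the Cd3 chains of T cells, Ncr1, Klrb1c, Prf1 and Gzmb of NK cells and Hba-a1 and Hbb-bs of red cells were at 0 in all 9 libraries. A list of 12 neutrophil and granulocyte precursor markers summed to 10.2 to 17.5 CPM with TNF, 65.9 to 93.9 CPM with hypoxia and 109 to 128 CPM with IFNg. For 3 other lists the summed level was above 0 and lowest with TNF, while the endothelial list was highest with TNF. The endothelial list summed to 149 to 192 CPM with TNF, 85.1 to 105 CPM with hypoxia and 62.8 to 82.6 CPM with IFNg. Of its tested genes, 2 were higher and 1 lower with TNF than with hypoxia. The T cell list summed to 4.16 to 7.67, 2.47 to 6.36 and 1.65 to 2.09 CPM in that order. The B cell list summed to 7.28 to 12.6 CPM with TNF, 250 to 283 CPM with hypoxia and 505 to 579 CPM with IFNg, nearly all of it Ighm (7.11 to 11.7, 235 to 267 and 500 to 572 CPM), and both of its tested genes were lower with TNF than with hypoxia. The NK cell list, nearly all Klrk1, summed to 18.1 to 21.6, 56.4 to 67.2 and 76.9 to 95.7 CPM in that order. The dendritic cell list summed to 46.9 to 61.8, 116 to 147 and 90.5 to 95.1 CPM, mostly Clec9a with hypoxia (110 to 137 CPM, against 12.5 to 14.1 CPM with TNF). Its member Ccr7 went the other way, at 28.6 to 44.8 CPM with TNF, 0.464 to 1.53 CPM with hypoxia and 0.156 to 2.8 CPM with IFNg. Of the dendritic cell genes tested, 1 was higher and 1 lower with TNF than with hypoxia. Ighm, Klrk1, Clec9a and Ccr7 were named after their values were seen, and the part of these cells in the results was not tested. In bulk RNA, fewer cells of a type and less RNA per cell cannot be told apart.

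Of 11563 genes tested, 4514 (39%) differed between TNF and hypoxia by edgeR's quasi-likelihood test at an adjusted p under 0.05. TNF was higher for 2190 genes (18.9%) and hypoxia for 2324 (20.1%), and the difference was at least 2-fold for 1076 (9.31%) and 1250 (10.8%). Against IFNg alone, 5174 genes (44.7%) differed with TNF and 2918 (25.2%) with hypoxia: TNF raised 2560 genes (22.1%) and lowered 2614 (22.6%), while hypoxia raised 1556 (13.5%) and lowered 1362 (11.8%). These last comparisons share the IFNg libraries, so their values are given side by side and no overlap of them is tested. The split against IFNg depends on scaling: with library totals implied by the deposited RPKM values, the all-gene median log2 fold change moved from -0.049 to -0.369 for TNF and from -0.011 to -0.256 for hypoxia. The direct contrast moved less, from -0.007 to -0.081.

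Genes of glycolysis rose in both states. Of 24 tested genes of the glycolysis list, 15 rose and 3 fell with TNF against IFNg, and 15 rose and 1 fell with hypoxia. Of the 3 glucose transporters in it, 2 rose and 1 fell with TNF, and 1 rose and 1 fell with hypoxia. Slc2a1 (ENSMUSG00000028645, chr4:119108711-119137983), the main glucose transporter, lay at 1198, 1123 and 1106 CPM with TNF, 842, 821 and 769 CPM with hypoxia and 70, 70.5 and 73.6 CPM with IFNg. Every TNF and hypoxia library stood far above every IFNg library, and the TNF libraries stood above the hypoxia libraries. The log2 fold change against IFNg was 4.0 with TNF and 3.51 with hypoxia, and the direct difference was small (0.50, SE 0.14, edgeR adjusted p = 0.00504). Ldha, which makes lactate from pyruvate, lay at 684, 910 and 807 CPM with TNF, 732, 838 and 811 CPM with hypoxia and 196, 203 and 197 CPM with IFNg, with overlapping values in the activated groups and a direct log2 difference of 0.01 (SE 0.12, adjusted p = 0.951). Hk1, a hexokinase, averaged 1093, 1009 and 406.6 CPM in the TNF, hypoxia and IFNg groups, with a direct difference of 0.12 (SE 0.13, adjusted p = 0.509).

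Directly compared, the glycolysis list had 3 genes higher with TNF, 6 higher with hypoxia and 15 not called, with a median log2 difference of -0.21 against -0.01 for all genes. Over the whole list this is about the share called among all genes (39%), so the members are described singly. Of the 6, 5 belong to the steps from hexokinase to fructose bisphosphate. Hk2, the inducible hexokinase, lay at 395, 426 and 358 CPM with TNF, 633, 549 and 589 CPM with hypoxia and 64.1, 56.2 and 72.5 CPM with IFNg, and the TNF and hypoxia libraries did not overlap (log2 difference -0.59, SE 0.12, adjusted p = 2.66e-04). Pfkp, a phosphofructokinase, was higher with hypoxia as well (1190 against 2046 CPM on average, log2 difference -0.78), and so was Gpi1, glucose-6-phosphate isomerase (539.7 against 864.9 CPM, -0.68). Among genes of this list, Gapdh and Pgam1 had at most 14 counts in a group, so nothing is read from them. Both have many near-identical copies, and whether their reads were lost in counting was not tested.

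The hypoxia response list rose in both states. Of its 37 tested members, 22 rose and 4 fell with TNF against IFNg, and 25 rose and 0 fell with hypoxia, with median log2 fold changes of 2.41 and 2.25. Compared directly, 5 members were higher with TNF and 17 with hypoxia (median -0.52). Adm, the vasodilator peptide adrenomedullin, and Ak4, a mitochondrial adenylate kinase, had no count in any IFNg library. Ak4 lay at 6.78, 10.2 and 9.26 CPM with TNF and 9.87, 8.34 and 12.1 CPM with hypoxia, overlapping ranges that were at least 146-fold and at least 172-fold above IFNg, and its direct difference did not pass the test (-0.21, adjusted p = 0.828). Adm was at least 106-fold and at least 222-fold higher than in IFNg, with a direct log2 difference of -1.11 (adjusted p = 0.282, and 0.0217 when only these 6 libraries were fitted).

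Transcripts of oxygen sensing and its feedback differed in part. Of 11 tested genes, 1 was higher with TNF, 5 were higher with hypoxia and 5 were not called. Hif1a (chr12:73901375-73947530), the oxygen-regulated HIF subunit, lay at 1489, 1861 and 1659 CPM with TNF, 363, 351 and 383 CPM with hypoxia and 304, 338 and 343 CPM with IFNg. The Hif1a transcript was thus high only in the TNF libraries (direct log2 difference 2.19, SE 0.11, adjusted p = 1.47e-14), and its value in hypoxia did not pass the test against IFNg (0.16, adjusted p = 0.338). Egln3, a HIF prolyl hydroxylase and HIF target, went the other way, at 38.7, 22.7 and 50.9 CPM with TNF, 132, 118 and 137 CPM with hypoxia and 0.104, 1.24 and 0.889 CPM with IFNg. All hypoxia libraries were above all TNF libraries, and both groups were far above IFNg. The direct difference of Egln3 (log2 -1.79, SE 0.54, adjusted p = 0.0153) lost its call without the third hypoxia library (0.0513), without TNF library 1 (0.0526), without TNF library 2 (0.0696) and by the Wald test of DESeq2 (0.0943).

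Other HIF targets went different ways. Of 6 tested genes of mitophagy and the switch away from respiration, 2 rose and 0 fell with TNF against IFNg, 4 rose and 0 fell with hypoxia, and directly 3 were higher with hypoxia, 0 with TNF and 3 not called. Pdk1, the kinase that keeps pyruvate out of mitochondria, lay at 225, 216 and 237 CPM with hypoxia but at 78.4, 72.5 and 85.5 CPM with TNF, close to the 76.2, 55 and 61.3 CPM of IFNg (direct log2 difference -1.52). Cox4i2, the cytochrome oxidase subunit made in low oxygen, lay at 20.5, 12.9 and 7.88 CPM with hypoxia and at 0.278, 0 and 0 CPM with TNF (-6.96). Collagen prolyl hydroxylase P4ha1 rose in both, to means of 270.3 CPM with TNF and 369.2 CPM with hypoxia from 91.75 CPM (direct -0.45, adjusted p = 0.00367). Vegfa, the vessel growth factor, was one of the few that TNF raised further: 207, 194 and 238 CPM with TNF, 75.1, 44.6 and 61.5 CPM with hypoxia and 12.8, 15.1 and 10.3 CPM with IFNg (direct log2 difference 1.82, adjusted p = 7.33e-08). Kdm6b, a histone H3 lysine demethylase, rose in both, to means of 168 and 175 CPM from 15.5 CPM, with a direct difference of -0.06 (adjusted p = 0.799).

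**Figure D1:**
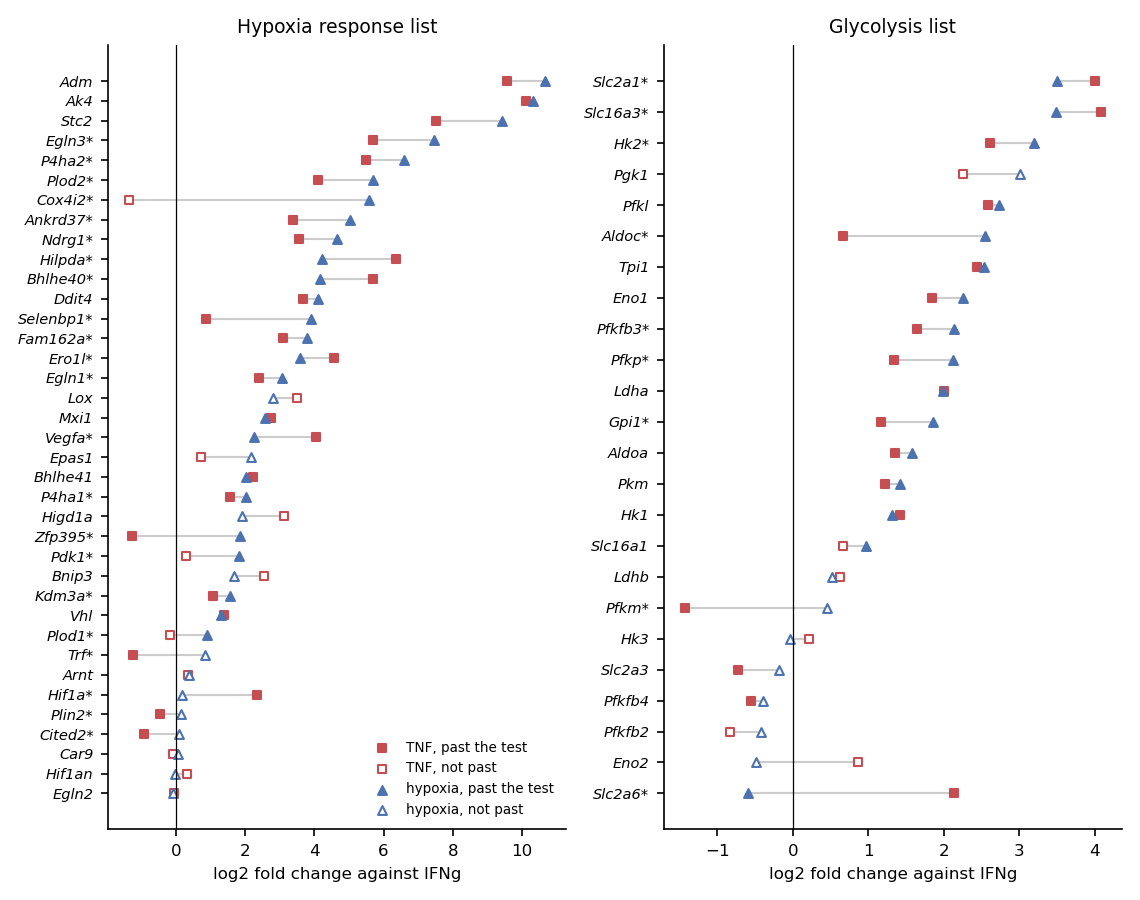
Log2 fold change against IFNg alone for genes of the hypoxia response and glycolysis lists, with squares for IFNg with TNF and triangles for IFNg with hypoxia. Filled symbols passed edgeR's test at an adjusted p under 0.05 and an asterisk marks genes that differ between the 2 treatments. Most symbols lie right of 0 for both treatments, Pdk1, Cox4i2 and Egln3 lie further right for hypoxia, and Hif1a and Vegfa for TNF. The fitted fold changes of Adm, Ak4 and Stc2, which had no counts with IFNg alone, depend on the prior count.

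Cell division genes fell in both states, further with TNF. Of 36 cell cycle genes tested, 35 fell with TNF and 34 with hypoxia against IFNg, and 0 rose with either, with median log2 fold changes of -3.45 and -2.45. In the direct comparison 23 were lower with TNF and 2 higher (19 to 25 and 1 to 2 over the alternatives, with 1 higher without TNF library 1 or 3 or hypoxia library 2 or 3). By role, 17 of 20 mitotic genes and 6 of 16 replication genes were lower with TNF (the latter 4 without TNF library 3, 3 without hypoxia library 3). Top2a, the topoisomerase of dividing cells, lay at 23.2, 25.2 and 15.3 CPM with TNF, 63.1, 71.4 and 32.4 CPM with hypoxia and 459, 456 and 370 CPM with IFNg, and Ccnb2, a mitotic cyclin, averaged 1.435, 10.68 and 60.16 CPM in the same order (direct log2 differences -1.38 and -2.88). Mcm5, part of the replicative helicase, averaged 14.14 CPM with TNF and 13.72 CPM with hypoxia from 107.4 CPM, with overlapping libraries and a direct difference of 0.04 (adjusted p = 0.911). Mki67, the proliferation marker, showed overlapping values of 36.3, 44.8 and 27.1 CPM with TNF and 65.3, 52.1 and 41.5 CPM with hypoxia, and its direct call (-0.56, adjusted p = 0.0471) was lost without TNF library 1 (0.105) or 3 (0.189) and without hypoxia library 1 (0.22) or 2 (0.0837). Granulocyte precursor markers moved in the same order, lowest with TNF (8 of 10 tested were lower than with hypoxia, 0 higher), and their part in these values was not tested.

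The arginine and nitric oxide genes set the states apart. Nos2 (ENSMUSG00000020826, chr11:78920787-78960254), the inducible nitric oxide synthase that turns arginine into nitric oxide, lay at 18050, 21070 and 21180 CPM with TNF, 1287, 970 and 1209 CPM with hypoxia and 19.0, 22.1 and 33.6 CPM with IFNg. Hypoxia thus raised it well above IFNg (log2 5.54), and TNF raised it further (9.66), with a direct difference of 4.12 (SE 0.23, adjusted p = 2.55e-11). Arg1 (ENSMUSG00000019987, chr10:24915221-24927484), the cytosolic arginase that competes for the same substrate, ran the other way: 428, 383 and 430 CPM with hypoxia, 21.3, 10.7 and 12.1 CPM with TNF and 3.86, 4.12 and 4.72 CPM with IFNg (direct log2 difference -4.81, SE 0.30, adjusted p = 3.95e-10). Both arginine-using enzymes passed the test against IFNg in both states, Nos2 rising more with TNF and Arg1 more with hypoxia. Arg2, the mitochondrial arginase, was a TNF gene, at 63.1, 46.9 and 42.1 CPM, against 0.331, 0 and 0.695 CPM with hypoxia and 0 in all IFNg libraries (direct log2 7.15, adjusted p = 3.81e-07).

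Genes for the supply of arginine and of the synthase's cofactor were also higher with TNF. Slc7a2, an arginine transporter, averaged 630.8 CPM with TNF, 38.43 CPM with hypoxia and 6.325 CPM with IFNg (direct log2 4.04, adjusted p = 1.2e-10). Ass1, which remakes arginine from citrulline, averaged 301.4, 19.54 and 25.04 CPM, and Gch1, which starts tetrahydrobiopterin synthesis, 29.73, 4.943 and 5.947 CPM. Neither passed the test for hypoxia against IFNg (adjusted p = 0.438 and 0.56). In the arginine and nitric oxide group, 6 of 7 genes were higher with TNF and 1, Arg1, with hypoxia. Acod1, which makes itaconate, lay at 16480, 16720 and 16250 CPM with TNF, 585, 484 and 529 CPM with hypoxia and 261, 302 and 291 CPM with IFNg, so that all TNF libraries stood far above the rest (direct log2 4.95, SE 0.16, adjusted p = 1.12e-18). Cybb, the catalytic subunit of the phagocyte oxidase, averaged 3671 CPM with TNF, 965.7 CPM with hypoxia and 1252 CPM with IFNg (direct log2 1.93).

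The cyclooxygenases, which start prostanoid synthesis, went opposite ways. Ptgs2, the inducible cyclooxygenase, lay at 5311, 6359 and 5871 CPM with TNF, 107, 116 and 136 CPM with hypoxia and 21.7, 27.6 and 21 CPM with IFNg. Ptgs1, the constitutive form, lay at 0.222, 0.197 and 3.30 CPM with TNF, 77, 86.2 and 58.5 CPM with hypoxia and 38.8, 55.1 and 42.5 CPM with IFNg. Every hypoxia library of Ptgs1 lay above every IFNg library, without passing the test (log2 0.70, adjusted p = 0.272, and 0.00109 when only those 6 libraries were fitted), and the TNF libraries lay far under both. The direct log2 differences were 5.61 for Ptgs2 (SE 0.18, adjusted p = 3.16e-17) and -6.03 for Ptgs1 (SE 0.59, adjusted p = 4.09e-07). Ptges, the prostaglandin E synthase that works beside Ptgs2, lay at 207, 214 and 199 CPM with TNF and at 0, 2.13 and 0.695 CPM with hypoxia. In all, 13 of 25 effector genes were higher with TNF and 6 with hypoxia (18.9% and 20.1% over all genes).

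**Figure D2:**
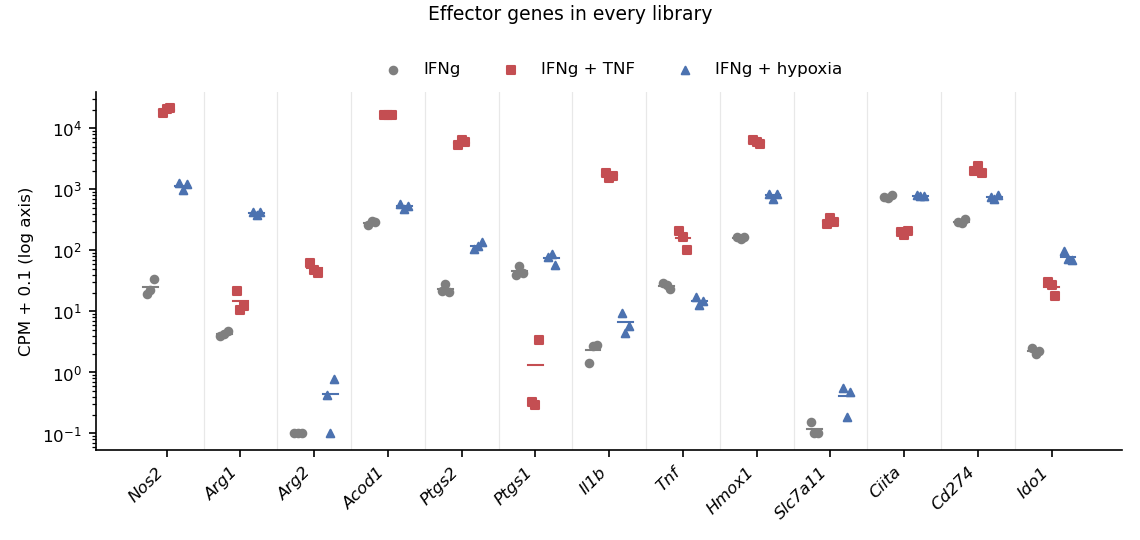
CPM of 13 effector genes in each library on a log axis, with 0.1 added, for IFNg alone (grey circles), IFNg with TNF (red squares) and IFNg with hypoxia (blue triangles), where the bar is the mean of 3 libraries. Nos2, Acod1, Ptgs2, Il1b and Slc7a11 are highest with TNF, Arg1, Ptgs1 and Ido1 with hypoxia, and Ciita is lowest with TNF.

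Cytokines were largely TNF genes. Of 21 tested cytokine genes, 13 were higher with TNF and 4 with hypoxia (median log2 difference 1.36). Il1b (chr2:129364570-129371139), a central inflammatory cytokine, lay at 1865, 1555 and 1643 CPM with TNF, 9.41, 4.34 and 5.71 CPM with hypoxia and 1.36, 2.65 and 2.73 CPM with IFNg (direct log2 8.0, SE 0.43, adjusted p = 3.92e-10). Every hypoxia library of Il1b was above every IFNg library, and the TNF libraries were far above both. The rise with hypoxia against IFNg (log2 1.57, adjusted p = 0.0198) lost its call without IFNg library 1 (0.102) or hypoxia library 1 (0.123). Tnf transcript itself lay at 206, 168 and 103 CPM with TNF, 17.4, 12.4 and 14.6 CPM with hypoxia and 29.4, 26.6 and 23.4 CPM with IFNg, so every hypoxia library lay under every IFNg library (-0.84 against IFNg, adjusted p = 0.00511, and a direct log2 difference of 3.42, adjusted p = 3.67e-12). Il6 had only 3 counts in the hypoxia group, and its ratio of TNF to hypoxia was 238 with a 95% counting interval of 81.3 to 1160. Osm, oncostatin M, averaged 42.7, 2.597 and 2.715 CPM with TNF, hypoxia and IFNg. Il15, which supports lymphocytes, rose in both, to means of 94.75 and 95.75 CPM from 31.45 CPM, and the direct difference was -0.02 (SE 0.23, adjusted p = 0.97).

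Of the 4 cytokine genes higher with hypoxia, Il10, the anti-inflammatory cytokine, lay at 3.64, 1.79 and 3.55 CPM with hypoxia and 0.111, 0 and 0.471 CPM with TNF (direct log2 -3.99, adjusted p = 0.00251). IFNg alone gave 5.89, 2.65 and 8.89 CPM, a range that overlaps hypoxia, and TNF was the low group. Il12b, a subunit of interleukins 12 and 23, lay at 5.95, 10.2 and 5.57 CPM with TNF, had counts in 1 hypoxia library only (0.463 CPM) and none with IFNg. Among chemokines, 11 of 19 were higher with TNF and 2 with hypoxia, with 6 of 8 CXC and CX3C genes higher with TNF and 0 lower, and 5 of 11 CC genes higher and 2 lower. Cxcl3 had no count in the hypoxia libraries and was at least 205-fold higher with TNF. These chemokine, cytokine and NF-kappaB lists contain known TNF targets, so their direction with TNF is a description of the stimulus as well as of its contrast with hypoxia.

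Most genes of the NF-kappaB list were higher with TNF. Of 35 tested members, 23 were higher with TNF and 3 with hypoxia in the direct comparison (24 and 1 without the third TNF library), with 3 of 5 subunits, 7 of 9 inhibitors and feedback genes, 6 of 11 kinases and adaptors and 7 of 10 other targets higher with TNF. The TNF receptors and the steps just below them are a list of their own: of 14 receptors, adaptors and proteases, 3 were higher with TNF, 3 with hypoxia and 8 not called (median 0.01, and 2 and 1 without hypoxia library 2). That is close to the share over all genes (18.9% and 20.1%). Nfkbia, whose promoter is shown above and whose product IkappaB-alpha is both inhibitor and target, lay at 469, 346 and 420 CPM with TNF, 88.2, 79.3 and 81.2 CPM with hypoxia and 54.8, 48.8 and 36.8 CPM with IFNg. The groups did not overlap, and hypoxia stood slightly above IFNg (direct log2 2.31, SE 0.16, adjusted p = 6.9e-12). Sod2, the mitochondrial superoxide dismutase, averaged 976.1, 41.86 and 40.9 CPM with TNF, hypoxia and IFNg (direct log2 4.54, adjusted p = 2.26e-18). Against IFNg, 27 members rose and 1 fell with TNF, and 13 rose and 1 fell with hypoxia (9 and 3 with library totals implied by RPKM). Tnfaip3, the feedback enzyme A20, lay at 452.6, 500.3 and 416.5 CPM with TNF, 106.1, 113.6 and 101.1 CPM with hypoxia and 37.74, 48.98 and 42.79 CPM with IFNg, so hypoxia raised it in part (1.31) and TNF more (3.4). Ier3, an early response gene, was among those that rose in both, to means of 128.6 and 48.59 CPM from 1.678 CPM.

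Oxidative defence genes lay almost wholly on the TNF side. Of 37 Nrf2 target, glutathione and heme genes tested, 29 were higher with TNF and 1 with hypoxia (3 without TNF library 1 or with library totals implied by RPKM, 2 without TNF library 3), with a median log2 difference of 2.16. By arm, 8 of 9 cystine and glutathione genes, 7 of 8 thioredoxin genes, 6 of 7 NADPH genes and 7 of 10 heme and iron genes were higher with TNF. Slc7a11 (chr3:49892526-50443614), which imports cystine for glutathione, lay at 274, 345 and 292 CPM with TNF and at 0.464, 0.0851 and 0.386 CPM with hypoxia (direct log2 9.83, SE 0.42, adjusted p = 2.64e-14). Gclm, the glutathione synthesis subunit whose promoter is shown above, lay at 526, 471 and 582 CPM with TNF, 28.4, 20.9 and 36.7 CPM with hypoxia and 20.9, 32.1 and 23.8 CPM with IFNg. The hypoxia and IFNg values of Gclm overlap, and the TNF values stand apart (direct log2 4.20, SE 0.24, adjusted p = 1.91e-11).

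Hmox1, heme oxygenase, was one of the members that hypoxia also raised: 6451, 5888 and 5570 CPM with TNF, 853, 690 and 836 CPM with hypoxia and 164, 152 and 164 CPM with IFNg (direct log2 2.91, SE 0.15, adjusted p = 1.32e-14). Prdx1, a peroxide-removing enzyme, lay at 6687, 6137 and 6249 CPM with TNF, and at 267, 265 and 268 CPM with hypoxia against 304, 251 and 327 CPM with IFNg. Pgd and G6pdx, which make NADPH in the pentose phosphate pathway, averaged 1778 and 700.1 CPM with TNF and 397.2 and 223.3 CPM with hypoxia. The regulators moved apart: Nfe2l2, which encodes Nrf2, was higher with TNF (direct log2 1.41) and Bach1, a repressor of the same elements, was higher with hypoxia (-1.20). Against IFNg, 31 members rose and 2 fell with TNF (29 and 5 with library totals implied by RPKM), while 6 rose and 9 fell with hypoxia (6 and 15). Metallothionein Mt2 was an exception that rose in both, to means of 101.4 and 114.8 CPM from 4.662 CPM, with overlapping libraries and a direct difference of -0.18 (adjusted p = 0.74).

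**Figure D3:**
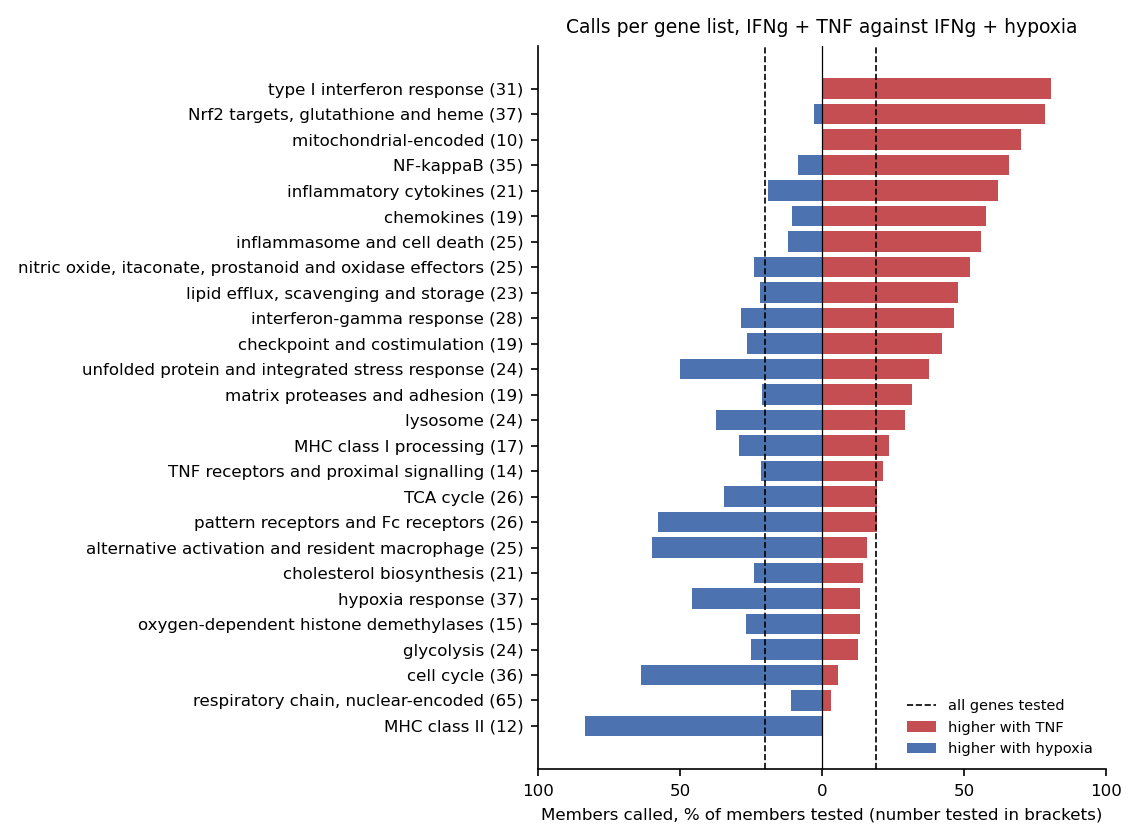
Percent of tested members of each gene list called in the direct comparison, to the right in red for genes higher with TNF and to the left in blue for genes higher with hypoxia. Dashed lines give the percent over all 11563 tested genes, 18.9 and 20.1. The Nrf2, type I interferon, mitochondrially encoded and NF-kappaB lists reach far right, and the MHC class II, cell cycle, pattern and Fc receptor and alternative activation lists far left.

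Transcripts of the mitochondrial genome were lowest with hypoxia. Of 10 tested mitochondrially encoded genes, 7 were higher with TNF and 0 with hypoxia (median log2 difference 2.68). Against IFNg, 7 fell and 0 rose with hypoxia, and 0 changed with TNF (0 rose and 2 fell with library totals implied by RPKM). mt-Nd1, a complex I subunit, lay at 431, 585 and 784 CPM with TNF and 64.7, 67.2 and 65.8 CPM with hypoxia, a direct log2 difference of 3.19. mt-Cytb, the cytochrome b of complex III, lay at 715, 910 and 972 CPM with TNF and 141, 163 and 123 CPM with hypoxia (2.61). mt-Co1, a cytochrome oxidase subunit, lay at 1043, 1344 and 2129 CPM with TNF, 450, 595 and 505 CPM with hypoxia and 1211, 1547 and 1031 CPM with IFNg (1.54), so its hypoxia libraries were also the lowest, by less. The mitochondrial share of all counts was 0.0726 to 0.0907% with hypoxia, 0.311 to 0.539% with TNF and 0.389 to 0.596% with IFNg. In the other 9 libraries of the series it was 0.438 to 0.803%, above the hypoxia range. What set the level of these transcripts in the hypoxia libraries, in the cells or in the making of the libraries, was not tested.

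Nuclear genes of respiration gave few calls in the direct contrast. Of 65 respiratory chain genes, 2 were higher with TNF and 7 with hypoxia, below the share of all genes in both directions, with a median of -0.08 (3 and 4 without TNF library 2 or hypoxia library 1, 1 and 7 without TNF library 1, 1 and 5 without hypoxia library 3). Against IFNg, 19 fell and 1 rose with TNF and 14 fell and 1 rose with hypoxia (41 and 0, and 33 and 1, with totals implied by RPKM). The TCA cycle list gave 5 higher with TNF and 9 with hypoxia of 26 (4 and 12 with those totals). Over all genes the shares were 18.9% and 20.1%. Against IFNg 13 TCA cycle genes fell with TNF and 14 with hypoxia (20 and 19 with those totals). Beside both lists, the shares of all genes against IFNg were 22.6% lower and 22.1% higher with TNF. With hypoxia they were 11.8% lower and 13.5% higher. Pcx, pyruvate carboxylase, averaged 53.66 CPM with TNF, 4.02 CPM with hypoxia and 8.022 CPM with IFNg (direct log2 3.73), while Fh1, fumarase, averaged 34.16, 83.02 and 111.2 CPM (-1.28), and Mdh1, cytosolic malate dehydrogenase, 163.4, 270.2 and 376.8 CPM (-0.73).

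**Figure D4:**
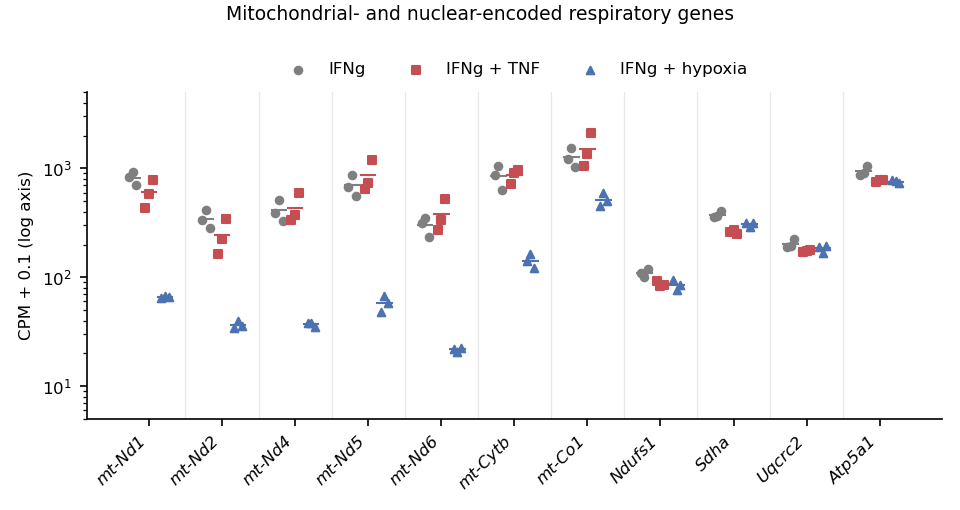
CPM per library of 7 mitochondrially encoded genes and 4 nuclear genes of respiration (Ndufs1, Sdha, Uqcrc2 and Atp5a1) with IFNg alone, IFNg with TNF and IFNg with hypoxia. The hypoxia libraries lie below all others for the mitochondrially encoded genes and not for the nuclear genes.

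The stress responses split by arm. Of 11 endoplasmic reticulum (ER) chaperone and unfolded protein genes, 0 were higher with TNF and 10 with hypoxia (median log2 difference -1.35). Against IFNg they moved apart, 8 falling and 0 rising with TNF, 6 rising and 0 falling with hypoxia. Hspa5 (chr2:34771970-34777547), the ER chaperone BiP, lay at 950, 1123 and 907 CPM with TNF, 3589, 3692 and 3323 CPM with hypoxia and 2117, 2112 and 1998 CPM with IFNg (direct log2 -1.83, SE 0.11, adjusted p = 4.69e-13). IFNg alone lay between the others, above every TNF library and below every hypoxia library. The ATF4 arm, which answers amino acid shortage, ran opposite in the direct comparison: 9 of 13 genes were higher with TNF and 2 with hypoxia (median 0.92). Against IFNg, 8 of its genes rose and 2 fell with TNF. With hypoxia 5 rose and 4 fell (median 0.19), so hypoxia did not lower this arm as a whole. Asns, asparagine synthetase, lay at 46.5, 63 and 69.4 CPM with TNF, 6.69, 5.02 and 1.93 CPM with hypoxia and 26.8, 22.6 and 19.5 CPM with IFNg, above IFNg with TNF (log2 1.37) and below it with hypoxia (-2.33). Psat1, a serine synthesis enzyme also under ATF4, was an exception, averaging 29.76 CPM with TNF and 69.79 CPM with hypoxia (direct -1.23, adjusted p = 2.65e-05).

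Most transcripts for antigen presentation by MHC class II were higher with hypoxia than with TNF. Of 12 class II genes, 10 were higher with hypoxia and 0 with TNF (median log2 difference -0.84, with 1 higher with TNF when only the 6 libraries were fitted). Ciita, the class II master regulator, lay at 200, 179 and 211 CPM with TNF, 801, 768 and 784 CPM with hypoxia and 741, 709 and 798 CPM with IFNg, so the TNF libraries alone were low (direct log2 -2.0, SE 0.14, adjusted p = 3.78e-12). Cd74, the invariant chain, lay at 8795, 9002 and 10220 CPM with TNF, 15980, 15860 and 15400 CPM with hypoxia and 9304, 10430 and 10720 CPM with IFNg (-0.75). TNF and IFNg overlapped for Cd74 and hypoxia stood above both, the reverse of the Ciita pattern. H2-DMa, the peptide exchange chaperone, averaged 469.3, 1492 and 978.8 CPM. Against IFNg, 7 class II genes rose and 0 fell with hypoxia, and 1 rose and 3 fell with TNF (0 and 7 with library totals implied by RPKM). Cd274, the inhibitory ligand PD-L1, lay at 1987, 2403 and 1846 CPM with TNF, 739, 686 and 808 CPM with hypoxia and 289, 278 and 322 CPM with IFNg, so it rose in both and more with TNF (direct log2 1.48).

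Fc receptors, which bind antibody, and the secreted C1q chains of complement were higher with hypoxia. Of 26 pattern recognition and Fc receptor genes, 15 were higher with hypoxia and 5 with TNF (20.1% and 18.9% over all genes). Fcgr4 (chr1:171018920-171029761), an activating Fc receptor, lay at 518, 624 and 620 CPM with TNF, 3709, 3857 and 3647 CPM with hypoxia and 1760, 1768 and 1899 CPM with IFNg, lowest with TNF and highest with hypoxia without overlap (direct log2 -2.67, SE 0.12). The direct log2 difference was -3.15 for the inhibitory receptor Fcgr2b, -1.78 for Fcgr1 and -1.36 for Fcgr3. The complement chains C1qa, C1qb and C1qc were also higher with hypoxia, by -2.29, -2.16 and -2.48 on the same scale. Hypoxia against IFNg gave smaller log2 values, 0.376 for C1qa and 0.57 for C1qb (edgeR adjusted p = 0.0232 and 0.00555). Both calls were lost with library totals implied by RPKM (edgeR adjusted p = 0.44 and 0.094). Trem2, a lipid receptor of macrophages, lay at 522.9, 553.8 and 419.9 CPM with hypoxia and 77.52, 64.15 and 70.17 CPM with TNF, against 454.9, 454.9 and 399.3 CPM with IFNg (direct log2 -2.82). Tlr9, which senses DNA, averaged higher with hypoxia too (-2.03), and TNF was again the low group. The exceptions were other sensors of microbes and damage: Clec4e, the C-type lectin Mincle, lay at 3230, 2716 and 2922 CPM with TNF and 10.7, 16.4 and 18.8 CPM with hypoxia (log2 7.6), and Cd14, the LPS co-receptor, at 5049, 5877 and 5037 CPM against 264, 222 and 174 CPM (4.60). Clec4n, Clec4d and Clec4e are neighbours of similar sequence and could share reads.

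**Figure D5:**
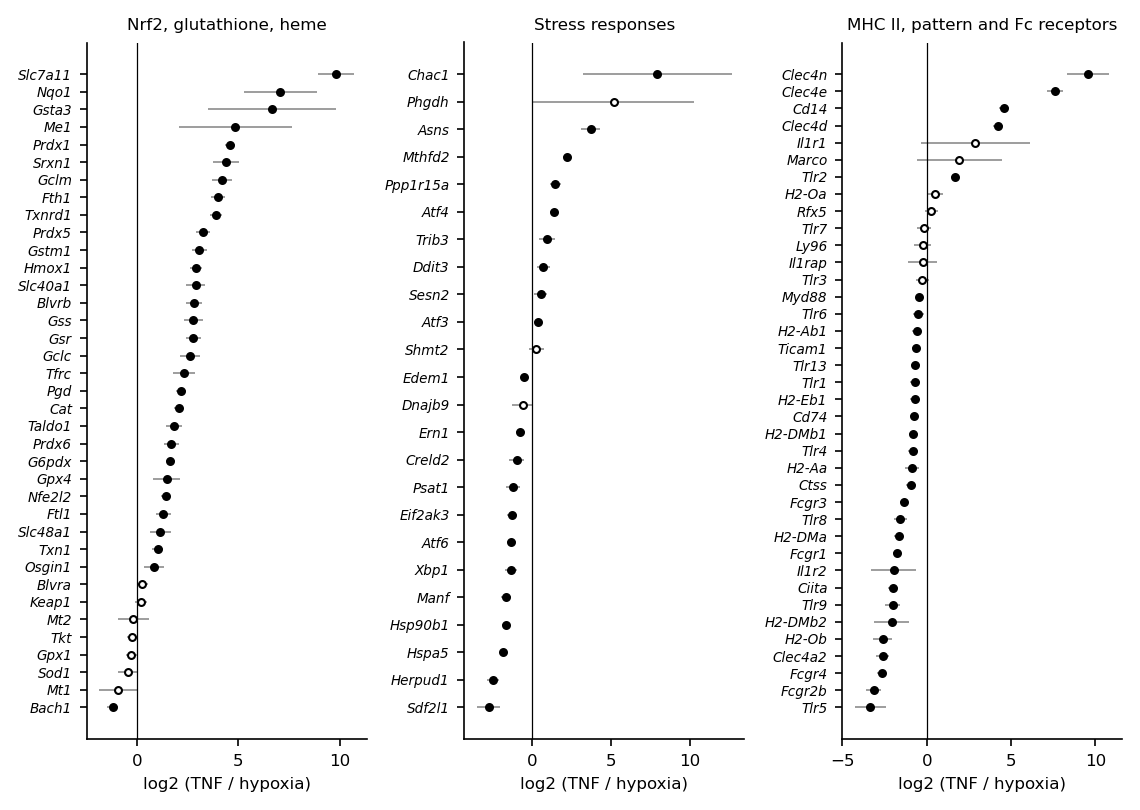
Direct log2 difference, IFNg with TNF against IFNg with hypoxia, with 95% intervals, for the Nrf2, stress response, and MHC class II and receptor genes. Filled points passed edgeR's test. Nrf2 targets such as Slc7a11 and Gclm lie right of 0, ER chaperones such as Hspa5, class II genes such as Ciita and Fc receptors such as Fcgr4 lie left, and Asns and Clec4e lie right.

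Interferon response genes, with IFNg present in both groups, divided by list. Of 31 type I interferon response genes, 25 were higher with TNF and 0 with hypoxia (median log2 difference 0.74). Against IFNg, 22 rose and 1 fell with TNF (14 and 4 with library totals implied by RPKM), and 1 rose and 4 fell with hypoxia (0 and 18). Oasl1, an antiviral sensor family member, lay at 1364, 1611 and 1557 CPM with TNF, 119, 118 and 113 CPM with hypoxia and 103, 144 and 131 CPM with IFNg (direct log2 3.70). The hypoxia libraries of Oasl1 lay within the IFNg range. The IFNg response list was mixed, 13 of 28 higher with TNF and 8 with hypoxia (18.9% and 20.1% over all genes). Gbp4, a guanylate-binding protein, averaged 3368 CPM with TNF and 1362 CPM with hypoxia (1.31), whereas Gbp2b of the same family averaged 111.4 and 3435 CPM (-4.95). Gbp genes are similar in sequence and could share reads. Ido1, which degrades tryptophan, lay at 96.7, 71.3 and 68.6 CPM with hypoxia, at 30.1, 27.2 and 18 CPM with TNF and 2.40, 1.88 and 2.19 CPM with IFNg, raised in both and more with hypoxia (direct -1.65, adjusted p = 7.3e-04).

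Genes of alternative activation and tissue residence were mostly higher with hypoxia than with TNF. Of 25 tested, 15 were higher with hypoxia and 4 with TNF (median log2 difference -1.84). Against IFNg, 5 rose and 13 fell with TNF (median -1.265). With hypoxia 8 rose, 2 fell and 15 were not called (median 0.193). Over all genes TNF raised 22.1% and lowered 22.6%, and hypoxia raised 13.5% and lowered 11.8%. Mertk, Igf1 and Klf4 were higher with TNF. Mertk lay at 369 to 465 CPM with TNF, 77.1 to 82.7 CPM with hypoxia and 73.7 to 78.5 CPM with IFNg. Selenop, a selenium transport protein, averaged 76.13 CPM with TNF, 1464 CPM with hypoxia and 1235 CPM with IFNg (direct -4.27, adjusted p = 2.48e-18), so here TNF was the group that stood apart (hypoxia against IFNg 0.25, adjusted p = 0.161). Il4ra, the interleukin-4 receptor chain, averaged 641.3, 1545 and 601.9 CPM (-1.27), where hypoxia was the group that stood apart. F13a1, coagulation factor XIII, averaged 5.22 CPM with TNF, 54.31 CPM with hypoxia and 6.525 CPM with IFNg (-3.41, adjusted p = 6.19e-04). Adgre1, the surface protein F4/80, averaged 1648 CPM with TNF against 2745 CPM with hypoxia and 2741 CPM with IFNg (-0.74).

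The largest direct differences, of which 6 of 10 on the TNF side and 2 of 10 on the hypoxia side are in a list, were on the TNF side Cxcl3, Gm15056, Adora2a, Fpr1, Clec4n, Inhba and Cxcl2 beside Slc7a11, Il1b and Ptges. Adora2a, an adenosine receptor, had no count with hypoxia and was at least 172-fold higher with TNF, and Fpr1, the formyl peptide receptor, had a ratio of 964 with a 95% counting interval of 267 to 7960. On the hypoxia side they were Ipcef1, Abca9, Gpr34, Myh10, Cox4i2, Abcg3, Etl4, Ptgs1, Tmem37 and Vldlr. Ipcef1 and Abca9 had no count with TNF and were at least 314-fold and at least 158-fold higher with hypoxia. Vldlr, a lipoprotein receptor, was at least 389-fold higher with hypoxia than with IFNg, where it had no count, and its direct call was lost with DESeq2 (adjusted p = 0.127). Adora2a and Fpr1 were also among the genes that TNF raised and hypoxia lowered against IFNg, with Nqo1, Best1, Ptgr1 and Dcbld2. Gpr34, Tmem37, Zfyve28, Tnfsf13b, Fat3 and Ndnf were those that TNF lowered and hypoxia raised. Tnfsf13b, which encodes the B cell factor BAFF, lay at 9.78, 8.28 and 8.24 CPM with TNF, 140.2, 141.1 and 134.6 CPM with hypoxia and 36.48, 45.68 and 33.7 CPM with IFNg, with IFNg between the others. Nqo1, a quinone reductase of the Nrf2 list, lay at 30.4, 32.01 and 22.92 CPM with TNF, 0, 0 and 0.618 CPM with hypoxia and 1.199, 2.119 and 3.623 CPM with IFNg. Of Ndnf, the call against IFNg was lost with TNF without TNF library 1 (adjusted p = 0.0724) or 3 (0.0709) or IFNg library 2 (0.0554), and with hypoxia without hypoxia library 2 (0.168) or any 1 IFNg library (0.0512 to 0.0848).

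Ranked by the smaller of the 2 fold changes against IFNg, the largest rises shared by both states were Ak4, Adm, Tnfrsf9, Mgarp, Bcar1 and Heatr9. Tnfrsf9, the costimulatory receptor 4-1BB, had no count with IFNg and lay at 14.73, 13.28 and 10.44 CPM with TNF and 1.789, 3.405 and 3.938 CPM with hypoxia, higher with TNF in every library (direct log2 2.07, adjusted p = 0.0508, between 2.23e-04 and 0.154 over the alternatives). Mgarp, a mitochondrial protein of the HIF response, lay at 57.96, 34.97 and 31 CPM with TNF and 77.11, 71.6 and 57.06 CPM with hypoxia, with 0.4121 CPM or less with IFNg. Among the largest shared falls were the DNA synthesis, repair and chromatid cohesion genes Rrm2, Tk1, Neil3, Mcm2 and Esco2. Rrm2, a ribonucleotide reductase subunit, lay at 2.39, 2.498 and 0.3925 CPM with TNF and 3.312, 1.447 and 1.853 CPM with hypoxia, which overlap, down from 55.14, 47.21 and 40.81 CPM with IFNg (direct -0.30, adjusted p = 0.588).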

How the data were processed

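Per library, the authors deposited a read count, a width and an RPKM value (reads scaled to width and library total) for each of 22598 genes. The aligner was GSNAP and the build mm10, per the submitters' processing notes; libraries were stranded mRNA, 50 bp single-end, from 100 ng RNA, per the labels' protocols. Counter, annotation and strand use: not given in the sources used here. Reads of overlapping genes or near-identical copies may thus be shared. Symbols and positions are from GENCODE M21 (22457 matched). RPKM served only for implied library totals in 1 alternative. Counts were tested with edgeR 4.0.16 (R 4.3.3: filterByExpr, TMM, robust quasi-likelihood, 1 model of 18 libraries), the source of every adjusted p (Benjamini-Hochberg over 11563 genes). A group with no counts was bounded at 3 counts over the group; 1 to 3 counts gave a ratio with a 95% interval; both cover counting error only. Of 100 genes simulated with a log2 change of 1, 65% were recovered, and of 100 with 2, 87% (11309 genes). Only these genes were changed, and genes of low count were left out of them. In the real contrast 39% of genes were called, so these rates need not hold for it. Alternatives were other scalings, DESeq2 1.42.0, no filter, fewer libraries and a replicate term. Replicates differed beyond counting noise (chi-square per degree of freedom 12 to 36.8). Members and 26 gene lists were chosen with earlier results of these data known. Named genes were, at 10 CPM or more, the 10 largest called direct differences each way without overlap and the 6 largest shared and opposite changes against IFNg each way, then up to 3 called members each way per list and a panel (187 in all); a further 53 were named for their roles after their values were seen.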

Additional observations from a re-analysis of the deposited data

How the results depend on the processing

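The direct count of 4514 differing genes ranged from 3896 to 4725 over 12 alternatives, from 3896 to 4160 when 1 of the 6 libraries was left out, and 3793 to 3918 of the genes called without a library were also called with all. It was 4513 with DESeq2's size factors, 4725 with its Wald test, 4378 without the filter and 4375 with the 6 libraries alone. Library totals implied by RPKM gave 4494, with 42.5% of the calls higher with TNF in place of 48.5%. Those totals moved the comparisons with IFNg most, to 1685 genes higher and 3985 lower with TNF, and 888 higher and 2564 lower with hypoxia. Same-numbered TNF and hypoxia libraries deviated together little (r 0.114, 0.009 and -0.003, against -0.094 to 0.081 for different numbers). With IFNg libraries, same-numbered r were 0.191, 0.016 and 0.021 for TNF (different numbers -0.142 to 0.108). For hypoxia they were 0.035, 0.033 and 0.046 (different numbers -0.027 to -0.009). These values are small, and the main fit did not pair libraries by number. A fit with the replicate block called 4657 genes directly (4447 shared), 5340 for TNF against IFNg and 3112 for hypoxia against IFNg. For 240 named genes, 8349 of 8622 recomputed values kept their side of the threshold, 207 lost and 66 gained a call. Where either fit called the gene, 0 values reversed direction. Sign changes of values that neither fit called were not counted. Genes below about 10 CPM in both groups are limited by depth.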

Other observations

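Of 23 lipid uptake and efflux genes, 11 were higher with TNF, 5 with hypoxia and 7 not called (18.9% and 20.1% higher over all genes). Acsl1, which activates fatty acids, averaged 4477 CPM with TNF, 383.6 CPM with hypoxia and 200 CPM with IFNg (direct log2 3.55), and Cd36, the fatty acid and oxidized LDL receptor, 2070, 516.2 and 552.6 CPM (2.0). The nuclear receptors ran against each other: Nr1h3 (LXR-alpha) averaged 75.76, 6.039 and 12.77 CPM (3.65), and Pparg 7.376, 45.5 and 72.7 CPM (-2.65). Of 19 matrix protease and adhesion genes, 6 were higher with TNF, 4 with hypoxia and 9 not called (median 0.23), against 18.9% and 20.1% of all genes. Mmp14, a membrane collagenase, averaged 266.4, 3.343 and 1.819 CPM (6.32), whereas Mmp13, a secreted one, averaged 21.58, 102.1 and 12.59 CPM (-2.24), and Mmp12, the macrophage elastase, rose in both, to 115.4 and 68.31 CPM from 6.34 CPM.

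Of 25 inflammasome and cell death genes, 14 were higher with TNF and 3 with hypoxia. Nlrp3, the sensor, averaged 661.4 CPM with TNF, 137.1 CPM with hypoxia and 130.8 CPM with IFNg (2.27), while its adaptor Pycard averaged 29.51, 115.8 and 131.1 CPM (-1.97), so with TNF the sensor was up and the adaptor down. Ninj1, which ruptures the membrane of dying cells, averaged 258.9, 43.87 and 19.91 CPM (2.56). The costimulatory genes Cd40 and Cd80 were higher with TNF (3.11 and 2.63). In the other IFNg groups of the series, Nos2 averaged 3091 ± 425 CPM with LPS and 197.8 ± 62.2 CPM with IL1b (SD, n = 3), Arg1 14.2 ± 4.33 and 9.045 ± 3.22 CPM, and Egln3 2.535 ± 2.01 and 0.4258 ± 0.448 CPM, so the hypoxia range of Nos2 lay between those means and the hypoxia range of Arg1 above both.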
